A study of Mus musculus with 39 samples.

Results

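Kinesins are motor proteins that walk along microtubules, most of them towards the growing end of the filament. In a sensory neuron of the dorsal root ganglion (DRG), whose axon reaches muscle or skin on one side and the spinal cord on the other, transport kinesins carry vesicles, mitochondria and receptors out of the cell body. Mitotic kinesins build the spindle, move chromosomes and separate daughter cells, and neurons that have left the cell cycle express most of them at low levels. The kinesin genes described here were all genes with the symbol Kif and a number (with an optional letter a to c) or Kifc and a digit that had a probe set annotated to that gene alone. They were 40 genes with 103 probe sets, of 18193 genes in all, and were divided by known role into 16 transport, 12 mitotic and 12 other kinesins, the last acting in cilia, in signalling or at microtubule ends. Each gene was read from its brightest probe set, and values are linear intensities after the authors' RMA normalization. No filter on low values was used: the mean log2 intensity over all arrays was under 6 for 9 of 12 mitotic, 5 of 12 other and 0 of 16 transport kinesins.

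Expression was measured on 39 arrays of mouse DRG, labelled as 129/C57Bl6 background. Newborn (p0) mice were NT3-/-Bax-/-, lacking the neurotrophin NT3 together with the proapoptotic gene Bax, so that neurons dependent on NT3 survive; Bax-/- alone; mlcNT3, with NT3 driven in skeletal muscle by a myosin light chain promoter; or wild-type. Every p0 mouse carried TrkCGFP, a BAC transgene in which regulatory elements of the NT3 receptor TrkC drive GFP in proprioceptors, the sensory neurons of muscle, and cells of L1 to L6 were pooled and sorted into TrkCGFPon and TrkCGFPoff fractions (2 arrays for each fraction and genotype, about 350 cells each). Wild-type p0 cells were also sorted from L5 (3 TrkCGFPon and 3 TrkCGFPoff arrays) and L1 (2 TrkCGFPon and 3 TrkCGFPoff arrays), with about 100 cells each. Whole adult wild-type DRG came from L5 or L1, after 5 weeks with a running wheel or without one, with 3 arrays in each of the 4 groups. For the running experiment the methods describe male C57Bl6 mice, 5 weeks old when it began, which differs from the labelled background. Each adult L5 array is titled TrkC- and each adult L1 array TrkC+, although neither their other labels nor the methods name a sort of adult ganglia, and they are treated here as whole DRG. If the sign stood for a sort, level and fraction could not be told apart in these arrays. The labels do not say whether replicates came from separate animals, so p-values measure the spread between arrays.

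The sorted fractions carried the markers of their labels. The summed level of 4 proprioceptor markers (Pvalb, Runx3, Ntrk3 and Esrrg) was 4482 to 19636 in p0 TrkCGFPon arrays, against 171 to 1375 in p0 TrkCGFPoff arrays. The 2 NT3-/-Bax-/- TrkCGFPoff arrays stood apart from all other TrkCGFPoff arrays. Their 5 fibroblast markers summed to 26868 and 40004, against 1549 to 7683 in the others, and their 5 endothelial markers to 1506 and 1512, against 179 to 651. Mki67, a protein of cycling cells, was at 3472 and 4762 in these arrays and at no more than 469 in the others. Scn10a, a sodium channel of nociceptors, was at 198 and 60.5 there, against 1083 to 1368 in the others. In bulk samples such as these, a change in the number of cells of a type and a change in the RNA of each cell cannot be told apart.

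The sequences before the genes are shown because members of the mitotic class moved together in some comparisons. Promoter windows of 300 bases, from 250 before to 50 after the start of each gene, were taken from RefSeq (build GRCm38.p6) and searched on both strands for TTTGAA, the letters of the CHR element known from cell cycle genes, and for the CCAAT box. The CHR letters stood in a window of 10 of the 11 mitotic kinesins that had one, of 1 of 11 transport kinesins and of 2 of 10 other kinesins, against 17.9% of all 32851 windows. The box was found in 7 of 11 mitotic, 3 of 11 transport and 5 of 10 other kinesins, against 37.4% of all windows, and the same 7 mitotic genes held both motifs, against 6.95% of all windows. A match describes the letters and is no evidence of binding. The 130 bases from 100 before to 30 after the start are shown for the 6 mitotic kinesins and for 2 transport kinesins, Kif3b and Kif16b, on which the NT3 comparisons turn, 5′ to 3′ on the strand of the gene, with capitals marking both motifs on either strand. They lie at chr19:37376282-37376411 (plus strand) for Kif11, chr19:34922258-34922387 (plus strand) for Kif20b, chr9:61946770-61946899 (minus strand) for Kif23, chr11:102925095-102925224 (minus strand) for Kif18b, chrX:100625965-100626094 (plus strand) for Kif4, chr7:127042391-127042520 (minus strand) for Kif22, chr2:153291316-153291445 (plus strand) for Kif3b and chr2:142901435-142901564 (minus strand) for Kif16b.
Kif11: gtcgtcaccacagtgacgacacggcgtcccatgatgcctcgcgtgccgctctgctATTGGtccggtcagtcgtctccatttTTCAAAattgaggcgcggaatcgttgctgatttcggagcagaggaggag
Kif20b: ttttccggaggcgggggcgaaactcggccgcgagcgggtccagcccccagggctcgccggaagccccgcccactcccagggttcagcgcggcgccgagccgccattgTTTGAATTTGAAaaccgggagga
Kif23: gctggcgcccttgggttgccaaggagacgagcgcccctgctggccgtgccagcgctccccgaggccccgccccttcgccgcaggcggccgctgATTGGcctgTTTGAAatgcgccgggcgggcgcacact
Kif18b: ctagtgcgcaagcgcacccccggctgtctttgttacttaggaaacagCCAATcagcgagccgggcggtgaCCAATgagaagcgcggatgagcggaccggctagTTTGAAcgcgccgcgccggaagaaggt
Kif4: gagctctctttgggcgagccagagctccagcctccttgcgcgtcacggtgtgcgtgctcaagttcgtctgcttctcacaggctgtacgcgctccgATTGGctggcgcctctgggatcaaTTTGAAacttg
Kif22: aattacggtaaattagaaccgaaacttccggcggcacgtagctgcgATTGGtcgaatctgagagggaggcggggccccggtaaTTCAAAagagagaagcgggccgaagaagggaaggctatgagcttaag
Kif3b: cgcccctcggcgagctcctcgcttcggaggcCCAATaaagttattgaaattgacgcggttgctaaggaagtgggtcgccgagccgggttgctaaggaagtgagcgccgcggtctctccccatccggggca
Kif16b: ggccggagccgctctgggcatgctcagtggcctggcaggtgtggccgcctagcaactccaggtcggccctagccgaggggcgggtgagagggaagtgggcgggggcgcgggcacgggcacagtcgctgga
In these stretches all 6 mitotic kinesins had the CHR letters, Kif3b had only the box and Kif16b had neither. The stretches were chosen by the calls of their genes. The CHR letters also stood in the windows of Kif14, Kif15, Kif2c and Kifc1, which were called in no comparison of NT3 loss.

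Kif21b, a transport kinesin that also limits microtubule growth, separated the fractions in every p0 group. Its intensity was 1589 and 1619 in wild-type TrkCGFPon cells, against 439 and 234 in TrkCGFPoff cells. Over all p0 arrays it ran from 1107 to 2284 in the TrkCGFPon fraction, against 234 to 621 in the TrkCGFPoff fraction, without overlap. Kif13b, a kinesin of membrane cargo, went the other way. It was at 296 and 323 in wild-type TrkCGFPon cells, against 807 and 776 in TrkCGFPoff cells, and its ranges over the p0 arrays, 170 to 341 against 485 to 871, did not overlap either. Both genes were picked by their calls on these arrays, so this adds no support. The share of all genes without overlap was not counted. Kif21b was 2.32 ± 0.32 higher on the log2 scale (SE, limma, n = 2 arrays each, adjusted p = 5.18e-04), and Kif13b fell by 1.36 ± 0.20 in TrkCGFPon cells (adjusted p = 7.79e-04). Each gene also has other, dimmer probe sets, and these did not pass the test: the second probe set of Kif21b stayed between 10.1 and 31.5 in all p0 arrays, with a wild-type difference of -0.16 (adjusted p = 0.72).

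**Figure D1:**
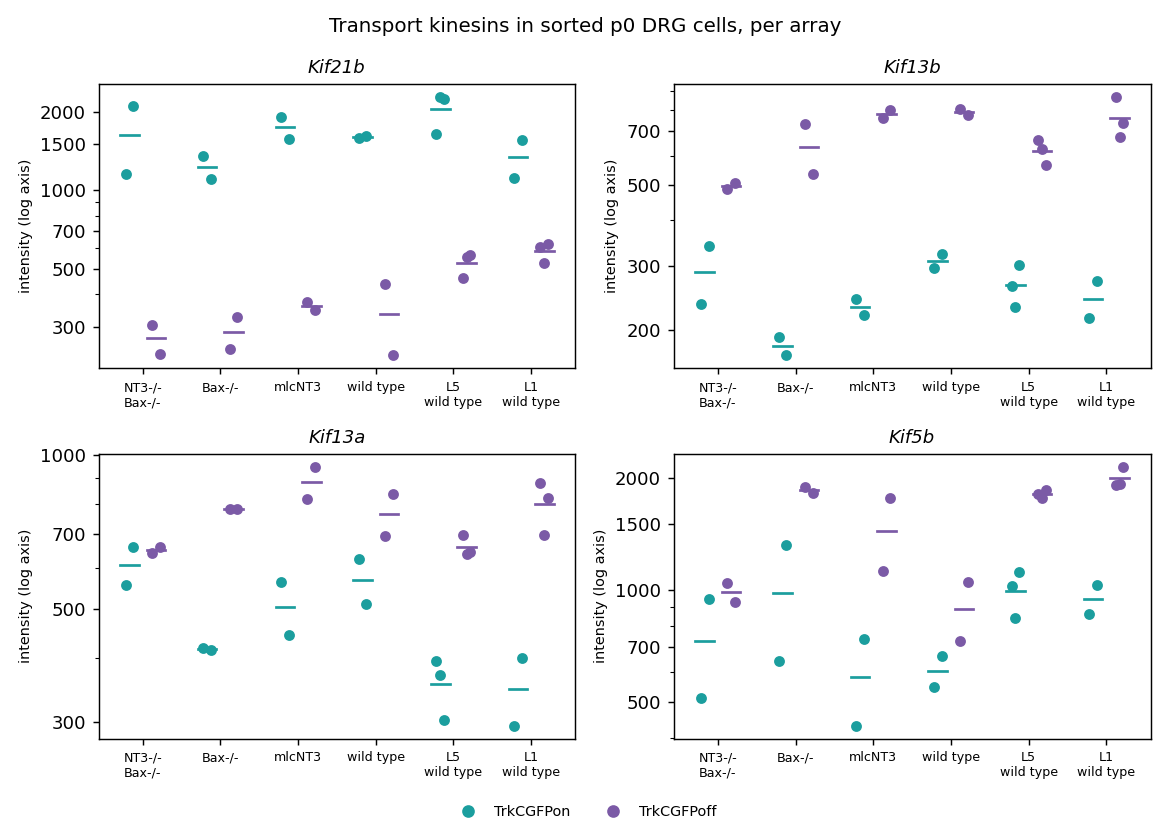
Intensity (log axis) of transport kinesins on single p0 arrays, TrkCGFPon left of TrkCGFPoff in each genotype or level, with 1 point for each array and lines for group means. Kif21b lies at 1107 to 2284 in TrkCGFPon and at 234 to 621 in TrkCGFPoff arrays, and Kif13b at 170 to 341 and 485 to 871.

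In wild-type pooled ganglia, 2 kinesins were higher in TrkCGFPon cells (background over all genes, 6.83%) and 2 were lower (5.14%). Besides Kif21b and Kif13b these were Kif27, a relative of ciliary kinesins, and Kif26b, which acts in cell adhesion and signalling. Kif27 was at 130 and 104 in TrkCGFPon cells, against 71.4 and 74.5 in TrkCGFPoff cells (log2 difference 0.67 ± 0.18, adjusted p = 0.0324), and Kif26b at 612 and 567 against 1035 and 918 (-0.73 ± 0.18, adjusted p = 0.024). Both calls were lost when any 1 of the 4 wild-type arrays was left out, with adjusted p up to 0.267 for Kif27 and 0.183 for Kif26b. None of the 12 mitotic kinesins passed (1 at an unadjusted p under 0.05, against 26.1% of all genes), and their median log2 difference was 0.02, against -0.06 over all genes. 

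The motors of general axonal transport had no call in these cells. Kif5a, a neuronal heavy chain of conventional kinesin, was at 7214 and 6455 in wild-type TrkCGFPon cells, against 8181 and 7507 in TrkCGFPoff cells (-0.20, 95% interval -0.63 to 0.23). Kif5c, the other neuronal heavy chain, was at 10910 and 10074 against 10700.3 and 11237 (-0.06, -0.45 to 0.32), and Kif1b, a motor of mitochondria and synaptic vesicle precursors, at 10908 and 10726 against 10620.0 and 11176 (-0.01, -0.37 to 0.35). The ranges of Kif5c and Kif1b overlapped between the fractions and those of Kif5a did not. Among the subunits of kinesin-2, which moves membrane cargo and builds cilia, Kif3a was at 3461 and 3189 against 2571 and 2563, Kif3b at 799 and 689 against 672 and 806, and Kif3c at 5131 and 4743 against 4236 and 4444. Kif1a was at 334 and 391 against 257 and 286 (0.41, -0.12 to 0.95), and Kif21a, which had no TrkCGFPon call in any p0 set, at 3292 and 3124 against 2839 and 3237. The ranges of Kif3a, Kif3c and Kif1a did not overlap either and were higher in TrkCGFPon cells, opposite to Kif5a. Those of Kif3b and Kif21a overlapped. The share of all genes without overlap was not counted.

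Kif21b and Kif13b had the largest differences of the sort in Bax-/- and mlcNT3 ganglia as well. In Bax-/- mice 1 kinesin was higher (background 5.34%) and 2 were lower (5.12%), and in mlcNT3 mice 1 was higher (5.45%) and 5 were lower (8.09%). Kif21b was at 1352 and 1107 in Bax-/- TrkCGFPon cells, against 247 and 329 in TrkCGFPoff cells (2.10 ± 0.32), and at 1906 and 1578 against 374 and 348 in mlcNT3 mice (2.27 ± 0.32). Kif13b was at 191 and 170 against 731 and 536 in Bax-/- mice (-1.80 ± 0.20) and at 243 and 219 against 761 and 801 in mlcNT3 mice (-1.76 ± 0.20). Kif13a, a close relative of Kif13b that moves recycling endosomes, was at 419 and 415 in Bax-/- TrkCGFPon cells, against 785 and 785 in TrkCGFPoff cells (-0.91 ± 0.18, adjusted p = 0.00676). In mlcNT3 mice Kif13a was at 563 and 444 against 818 and 948 (-0.82 ± 0.18, adjusted p = 0.0107). The other mlcNT3 calls were Kif1c (72.7 and 62.9 against 175 and 154, -1.28 ± 0.23), Kif26a (-1.15 ± 0.32) and Kif26b (-0.79 ± 0.18). The Kif26a call was lost on leaving out any of 10 arrays (adjusted p up to 0.228), that of Kif13a without replicate 2 of either mlcNT3 fraction (0.112) and that of Kif26b without replicate 2 of the TrkCGFPon or replicate 1 of the TrkCGFPoff fraction (0.134). The counts were 5 in Bax-/- mice without TrkCGFPon replicate 2 and 3 in mlcNT3 mice without TrkCGFPon replicate 2.

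**Figure D2:**
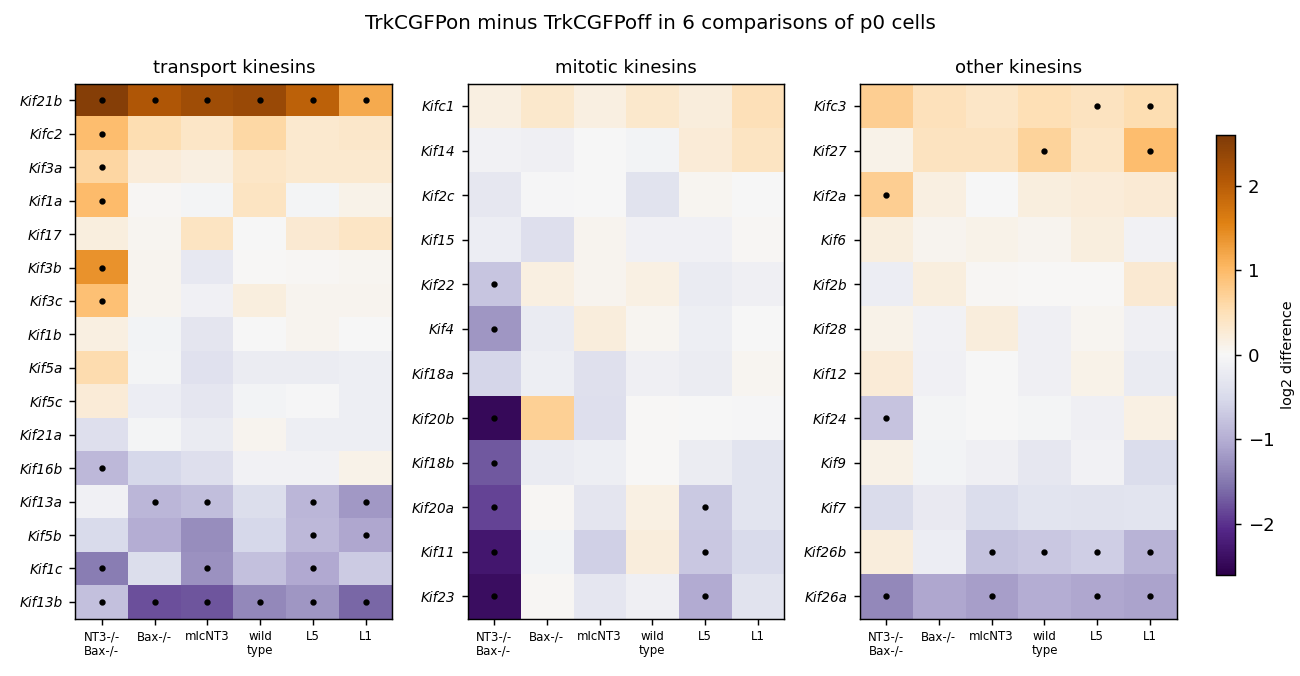
Log2 difference, TrkCGFPon minus TrkCGFPoff, of each kinesin (rows, by class) in the 6 p0 sets (columns), as colour, with a dot where the adjusted p was under 0.05. Kif21b is positive and Kif13b negative in all 6, and 7 mitotic kinesins have a dot in the NT3-/-Bax-/- column, against 3 at L5 and none in the others.

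The separate L5 and L1 sorts, with arrays independent of the pooled ones, gave more calls. At L5 2 kinesins were higher in TrkCGFPon cells (background 13.0%) and 9 were lower (13.0%), and at L1 3 were higher (11.9%) and 5 were lower (11.8%). Kif21b was at 1641, 2284 and 2239 in L5 TrkCGFPon cells, against 462, 556 and 566 in TrkCGFPoff cells (1.95 ± 0.17, adjusted p = 1.44e-05). At L1 it was at 1118 and 1556 against 608, 526 and 621 (1.18 ± 0.19, adjusted p = 0.00136). Kif13b and Kif13a were lower in TrkCGFPon cells at both levels, Kif13b by log2 differences of -1.23 ± 0.15 at L5 and -1.65 ± 0.17 at L1, and Kif13a by -0.90 ± 0.16 and -1.22 ± 0.17. Kif5b, the widely expressed heavy chain of conventional kinesin, was at 1021, 838 and 1116 in L5 TrkCGFPon cells, against 1806, 1761 and 1848 in TrkCGFPoff cells (-0.87 ± 0.13, adjusted p = 7.31e-04). At L1 it was at 862 and 1031 against 1912, 1917 and 2141 (-1.08 ± 0.15, adjusted p = 4.29e-04). In pooled wild-type ganglia Kif5b was at 548 and 662 against 727 and 1046 and did not pass (-0.53, 95% interval -1.37 to 0.31). All 5 other probe sets of Kif5b were also called lower at L1, and 4 of 5 at L5. Over the kinesins called at L5, 15 of 20 other probe sets had the sign of the one used and 6 were called with it, and at L1 11 of 13 and 8, with 0 called the other way at either level. Its neuronal relatives Kif5a and Kif5c passed at neither level.

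Among the other kinesins Kif26a, a regulator of signalling without motor activity, was lower in TrkCGFPon cells at L5 (-1.07 ± 0.21) and at L1 (-1.10 ± 0.23), as was Kif26b (-0.64 ± 0.15 and -0.94 ± 0.16). Kifc3, a minus-end motor, was higher at L5 (0.44 ± 0.13) and L1 (0.55 ± 0.15), and Kif27 was higher at L1 (0.97 ± 0.22). Without replicate 1 of the L1 TrkCGFPon cells the calls of Kif26a (adjusted p = 0.0638) and Kif27 (0.0851) at L1 were lost, and that of Kifc3 was lost without any of 3 L1 arrays. At L5 3 mitotic kinesins were called, Kif23, which works in cytokinesis, Kif11, which pushes spindle poles apart, and Kif20a. Kif23 was at 48.3, 56.9 and 91.1 in L5 TrkCGFPon cells, against 96.5, 168 and 130 in TrkCGFPoff cells (-1.03 ± 0.28, adjusted p = 0.0237), and Kif11 between 24.0 and 45.9 against 52.5, 47.9 and 62.6 (-0.72 ± 0.21, adjusted p = 0.0354). In the same arrays 7 of 22 other division genes were lower in TrkCGFPon cells, with sums of 3843 to 4248 against 5068 to 6425, and all 5 endothelial and 3 of 5 fibroblast markers were lower too; their part in the result was not tested. The Kif23 call was lost without any of 4 arrays (adjusted p up to 0.0956), that of Kif11 without any of 6 (0.120) and that of Kif1c (-1.04 ± 0.31) without any of 8 (0.132). The 3 other probe sets of Kif1c had the opposite sign at L5 (0.43, 0.16 and 0.17), as had 1 of 2 for Kif23 (0.14) and for Kif11 (0.23), with none of these called. No mitotic kinesin passed at L1 (1 at an unadjusted p under 0.05, against 35.7% of all genes). The count at L5 was 6 without TrkCGFPoff replicate 3 and 7 without TrkCGFPoff replicates 1 or 2 or TrkCGFPon replicates 2 or 3, and that at L1 was 5 without TrkCGFPon replicate 1.

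No kinesin passed between L5 and L1 within a fraction. The background of adjusted calls was 0.533% in TrkCGFPon and 0.214% in TrkCGFPoff cells. At an unadjusted p under 0.05 there were 2 of 40 kinesins in TrkCGFPon cells, against 9.88% of all genes, and 0 in TrkCGFPoff cells, against 6.01%. Kif21b was 0.62 ± 0.19 higher in L5 than in L1 TrkCGFPon cells (adjusted p = 0.293). The difference of its TrkCGFPon against TrkCGFPoff effect between L5 and L1 was 0.77 ± 0.26 (adjusted p = 0.53), and no kinesin passed in that comparison (background of adjusted calls 0.121%), where 1 of 40 had an unadjusted p under 0.05, against 7.24% of all genes.

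Loss of NT3 was compared between NT3-/-Bax-/- and Bax-/- mice, so that both lack Bax. In TrkCGFPon cells 6 of 40 kinesins were called, 2 higher (background 8.78%) and 4 lower (12.6%), each under the share over all genes. Kif16b, which moves early endosomes outwards, was at 219 and 277 in NT3-/-Bax-/- TrkCGFPon cells, against 842 and 743 in Bax-/- TrkCGFPon cells (-1.68 ± 0.24, adjusted p = 5.40e-04). Kif20b, a mitotic kinesin also present in growing neurons, was at 18.4 and 19.2 against 93.6 and 48.4 (-1.84 ± 0.26, adjusted p = 4.55e-04). Both were at similar low levels in the 2 mutant arrays. They were picked by their calls on these same arrays, so the lack of overlap with the Bax-/- arrays adds no support. Kif26a was higher, at 315 and 125 against 56.3 and 53.5 (1.85 ± 0.32, adjusted p = 0.00183). Kif21a, the close relative of Kif21b, was at 1207 and 1955 against 3189 and 4630 (-1.32 ± 0.29, adjusted p = 0.00784). Kifc2, a minus-end motor of neurons, was at 1239 and 1376 against 2426 and 2158 (-0.81 ± 0.21, adjusted p = 0.0204), and Kif13b at 236 and 341 against 191 and 170 (0.65 ± 0.20, adjusted p = 0.0368). The calls of Kif21a (adjusted p up to 0.0782) and Kifc2 (0.109) were lost without replicate 1 of the mutant or without 1 of the Bax-/- arrays (replicate 2 for Kif21a, replicate 1 for Kifc2), and that of Kif13b was lost without any of 9 arrays (0.234). Over these 6 kinesins, 10 of 11 other probe sets had the sign of the one used, and 2 were called with it. The exception was a probe set of Kif13b (-0.06, not called). The 3 other probe sets of Kif20b had its sign, with 0 called.

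Kif21b, the kinesin with the largest TrkCGFPon level over TrkCGFPoff, did not pass in this comparison. It was at 1151 and 2099 in NT3-/-Bax-/- TrkCGFPon cells, against 1352 and 1107 in Bax-/- TrkCGFPon cells (0.35, 95% interval -0.34 to 1.04). Other markers moved in the same arrays: Pvalb and Runx3 of the proprioceptors, Isl1 of neurons, Prph of nociceptors and Sox10, Fabp7 and S100b of the glial list were lower. S100b was called higher in TrkCGFPon than in TrkCGFPoff cells of wild-type, Bax-/- and mlcNT3 mice, so the glial sums do not measure glia alone. Neuronal markers summed to 38669 and 44149 in NT3-/-Bax-/- TrkCGFPon cells, against 56504 and 61113 in Bax-/- cells, and glial markers to 2300 and 4913 against 7196 and 9872, and their part in the kinesin results was not tested. The heavy chains Kif5a and Kif5c and the mitochondrial and vesicle motor Kif1b differed by 0.03 (-0.40 to 0.46), 0.21 (-0.17 to 0.60) and 0.01 (-0.36 to 0.37). The median log2 difference was -0.01 over the transport kinesins, -0.15 over the mitotic kinesins and -0.02 over all genes. Set against wild-type instead, NT3-/-Bax-/- TrkCGFPon cells had 2 kinesins higher (background 11.2%) and 9 lower (17.2%); this comparison shares its mutant arrays with the one above. Kif16b (-1.98 ± 0.24), Kif20b (-1.83 ± 0.26), Kif26a (1.85 ± 0.32), Kifc2 (-1.35 ± 0.21) and Kif21a (-1.06 ± 0.29) were again among them, and Kif13b was not. Kif1a, the motor of synaptic vesicle precursors, was at 127 and 155 in NT3-/-Bax-/- cells, against 334 and 391 in wild-type cells (-1.36 ± 0.24, adjusted p = 0.00154). Kif3b, a subunit of kinesin-2, was at 291 and 508 against 799 and 689 (-0.95 ± 0.28, adjusted p = 0.0239), a call lost, like that of Kif21a, without replicate 1 of the mutant or either wild-type array (up to 0.225 for Kif3b and 0.163 for Kif21a). The Kif18a call (-0.67 ± 0.22) was lost without any of 6 arrays (0.171), and the count of 11 fell to 5 without wild-type TrkCGFPon replicate 1, 6 without replicate 2, and 7 without either mutant array.

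**Figure D3:**
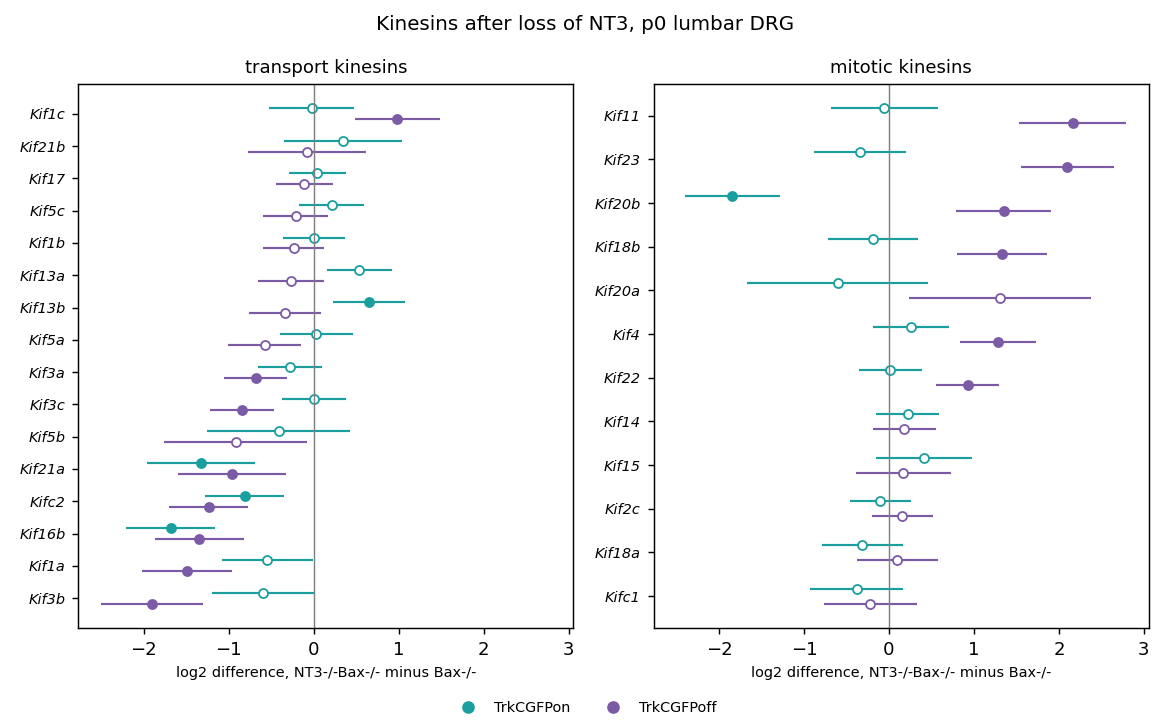
Log2 difference, NT3-/-Bax-/- minus Bax-/-, of transport and mitotic kinesins (rows) in TrkCGFPon and TrkCGFPoff cells, with 95% intervals as lines and filled points where the adjusted p was under 0.05. Kif20b lies at -1.84 in TrkCGFPon and 1.35 in TrkCGFPoff cells, and Kif16b is lower in both.

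In TrkCGFPoff cells 8 kinesins were higher (background 10.1%) and 8 lower (15.5%) in NT3-/-Bax-/- than in Bax-/- mice, and the classes parted. Of the mitotic kinesins 6 of 12 were higher and none lower, and of the transport kinesins 1 of 16 was higher and 7 were lower. Kif11 was at 138 and 223 in NT3-/-Bax-/- cells, against 41.8 and 36.6 in Bax-/- cells (2.16 ± 0.29, adjusted p = 3.54e-04). Kif23 was at 313 and 464 against 86.3 and 91.6 (2.10 ± 0.25, adjusted p = 1.75e-04). Kif18b, which trims spindle microtubules, was at 73.7 and 113 against 35.1 and 37.4 (1.33 ± 0.24), and Kif20b at 104 and 104 against 46.9 and 35.3 (1.35 ± 0.26). Kif4 (1.28 ± 0.20) and Kif22 (0.93 ± 0.17), both chromosome motors, were the other 2. All 6 were higher in both mutant arrays than in both Bax-/- arrays. They had been picked by their calls on these same arrays, so this adds no support. The share of all genes without overlap was not counted. Kif4 was at 92.3 and 98.3 against 37.9 and 40.5, and Kif22 at 1588 and 1710 against 809 and 928. The median over the mitotic kinesins was 1.11, against -0.04 over all genes.

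These values come from the 2 arrays that stood apart. Of 22 other division genes, 18 were higher there, with sums of 17687 and 23504 against 4689 to 5730 in Bax-/- TrkCGFPoff cells. All 5 fibroblast markers, all 5 endothelial markers and 5 of 7 glial markers were higher (1, S100b, was lower), and glial sums were 21269 to 22129 against 7134 to 9027. Macrophage markers summed to 377 in one array and 12567 in the other, against 228 to 1202. Neuronal markers summed to 26008 and 30445, against 36202 and 40455. Of the 4 proprioceptor markers, Ntrk3 and Esrrg were called higher, and the 4 summed to 912 and 1279, against 293 and 299. Their part in the kinesin result was not tested. With both arrays left out of the fit, counts in the comparisons that do not use them were 6 for wild-type, 3 for Bax-/- and 6 for mlcNT3 fractions, and 6 for NT3-/-Bax-/- against Bax-/- and 12 against wild-type in TrkCGFPon cells.

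**Figure D4:**
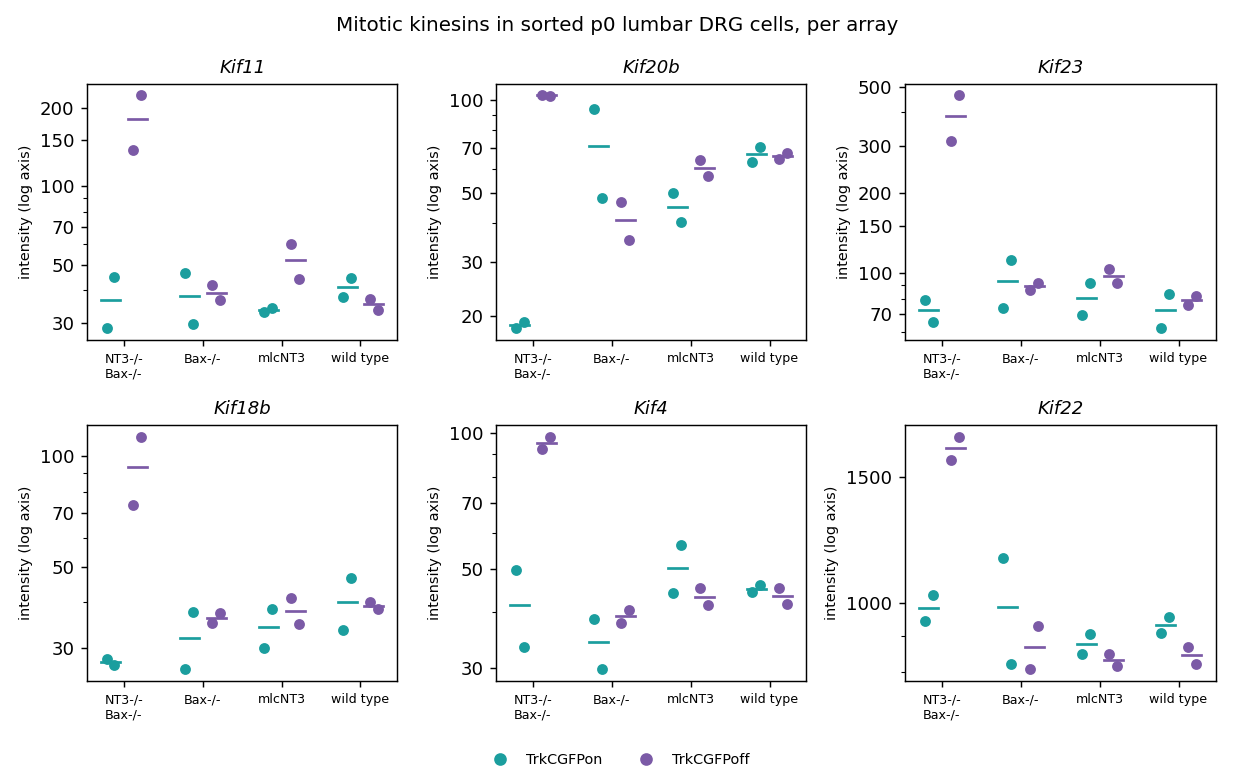
Intensity (log axis) of 6 mitotic kinesins on single pooled p0 arrays, TrkCGFPon left of TrkCGFPoff in each genotype, with 1 point for each array and lines for group means. Kif23 lies at 313 and 464 in the NT3-/-Bax-/- TrkCGFPoff arrays, against 86.3 and 91.6 in the Bax-/- TrkCGFPoff arrays.

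The 7 transport kinesins that were lower in the same cells included the kinesin-2 subunits Kif3a, Kif3b and Kif3c. Kif3b was at 150 and 144 in NT3-/-Bax-/- TrkCGFPoff cells, against 722 and 417 in Bax-/- cells (-1.90 ± 0.28, adjusted p = 5.73e-04). Kif3a (1504 and 1391 against 2200 and 2455, -0.68 ± 0.17) and Kif3c (2327 and 1964 against 4299 and 3418, -0.84 ± 0.17) were lower as well. Kif1a was at 69.0 and 73.3 against 252 and 158 (-1.49 ± 0.24, adjusted p = 0.00123). Kif16b was at 387 and 526 against 1372 and 957 (-1.34 ± 0.24), so that this endosome motor was lower in both fractions without NT3. Kifc2 was at 830 and 533 against 1613 and 1522 (-1.24 ± 0.21), and Kif21a at 1773 and 2382 against 4115 and 3881 (-0.96 ± 0.29). The exception was Kif1c, a motor expressed in many cell types, at 549 and 370 against 191 and 271 (0.98 ± 0.23). Among the other kinesins Kif26a was at 502 and 512 against 110 and 120 (2.15 ± 0.32, adjusted p = 6.80e-04), and Kif2a, which takes microtubules apart, was lower (-0.61 ± 0.16). Kif5a (-0.57 ± 0.20, adjusted p = 0.0576), Kif5b (-0.92 ± 0.39, 0.116), Kif5c (-0.21 ± 0.18, 0.454) and Kif1b (-0.24 ± 0.17, 0.368) did not pass. The median over the transport kinesins was -0.63. Over all kinesins called in this comparison, 25 of 29 other probe sets had the sign of the one used. Of these, 8 were called with it and 0 against it. Opposite signs came from probe sets of Kif11 (-0.05), Kif1c (-0.01), Kif21a (0.40) and Kif3a (0.26).

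The difference of the NT3 effect between the fractions was tested as an interaction. It passed for 8 kinesins, 2 with a higher effect in TrkCGFPon than in TrkCGFPoff cells (background 5.65%) and 6 with a lower one (7.23%), and the 6 were all mitotic. Kif20b had the largest difference among the kinesins (-3.19 ± 0.36, adjusted p = 2.66e-04): it was lower without NT3 in TrkCGFPon cells and higher in TrkCGFPoff cells. The probe set used was dim (mean log2 intensity 5.83). The 3 other probe sets of Kif20b had the same sign in each fraction, with 0 called. Kif23 (-2.44 ± 0.35, adjusted p = 0.00119) and Kif11 (-2.22 ± 0.41, adjusted p = 0.00487) followed, and neither passed in TrkCGFPon cells alone. The 2 other probe sets of Kif23 had its sign for NT3 loss in TrkCGFPoff cells, with 0 called. Kif18b, Kif4 and Kif22 and, in the positive direction, Kif13b and Kif3c had adjusted p of 0.0152, 0.0443, 0.0329, 0.0422 and 0.04997. Kif18b was lost without Bax-/- TrkCGFPoff replicate 1 (adjusted p = 0.0565), and the last 4 were lost without any of 11 to 14 arrays (up to 0.192). The count fell to 3 without Bax-/- TrkCGFPoff replicate 1, to 5 without Bax-/- TrkCGFPon replicate 1 or replicate 2 of either NT3-/-Bax-/- fraction, and to 4 without any wild-type array or either mlcNT3 TrkCGFPoff array.

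Within NT3-/-Bax-/- ganglia, 7 kinesins were higher (background 12.4%) and 12 lower (11.8%) in TrkCGFPon than in TrkCGFPoff cells, including 7 of 12 mitotic kinesins that were lower. Kif23 was at 79.1 and 65.5 in TrkCGFPon cells, against 313 and 464 in TrkCGFPoff cells (-2.40 ± 0.25), Kif20b at 18.4 and 19.2 against 104 and 104 (-2.47 ± 0.26) and Kif11 at 28.7 and 44.8 against 138 and 223 (-2.29 ± 0.29). Kif20a, at 25.9 and 16.1 against 37.0 and 154 (-1.89 ± 0.49, adjusted p = 0.0177), rested on single arrays: its call was lost without replicate 2 of either fraction (up to 0.112). Kif21b remained high, at 1151 and 2099 against 307 and 237 (2.53 ± 0.32, adjusted p = 1.50e-04), and Kif13b lower, at 236 and 341 against 485 and 505 (-0.81 ± 0.20). Over the kinesins called in this set, 23 of 33 other probe sets had the sign of the one used, 3 were called with it and 0 against it, and for Kif3b (1.39 ± 0.28) 2 of 3 had the opposite sign (-0.04 and -0.33). This set uses the arrays that stood apart. The TrkCGFPon against TrkCGFPoff effect differed from that in wild-type mice for 8 kinesins (background 13.8%), 6 of them mitotic.

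Neither the loss of Bax, compared in TrkCGFPon cells only, nor excess NT3 gave a kinesin call. Between Bax-/- and wild-type TrkCGFPon cells none passed (background of adjusted calls 0.346%), and 6 of 40 had an unadjusted p under 0.05, against 12.1% of all genes. On leaving out arrays, 1 kinesin passed without Bax-/- TrkCGFPon replicate 1. Between mlcNT3 and wild-type mice none passed in TrkCGFPon cells (background of adjusted calls 0.308%) or in TrkCGFPoff cells (0.00550%). At an unadjusted p under 0.05 there were 3 kinesins in TrkCGFPon cells, against 7.26% of all genes, and 0 in TrkCGFPoff cells, against 6.78%. The 2 mlcNT3 TrkCGFPon arrays were unlike each other. Kif5c was at 11179 and 7426 in them, against 10910 and 10074 in wild-type arrays. Their neuronal markers summed to 39399 in one and 58146 in the other, against 55772 and 58873.

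In whole adult DRG, Kif21b was higher at L5 than at L1. With a wheel it was at 118, 106 and 132 at L5, against 68.7, 69.6 and 66.5 at L1 (0.80 ± 0.16, adjusted p = 0.00689), and without one at 87.6, 119 and 137 against 55.1, 72.0 and 81.4 (0.72 ± 0.16, adjusted p = 0.0163). The ranges did not overlap in either condition, which adds no support, as Kif21b was picked by its calls on these arrays. All 4 proprioceptor markers were also higher at L5 with a wheel (sums of 2714 to 3048 against 1584 to 1628), and Pvalb, Runx3 and Esrrg without one (2351 to 2971 against 1433 to 1566). Trpv1 of nociceptors was lower at L5 in both conditions, Runx1 was lower with a wheel, and Csf1r of macrophages was higher without one. Their part in the result was not tested. Kif23 was lower at L5 with a wheel, at 88.0, 96.2 and 78.1 against 143, 149 and 145 (-0.74 ± 0.14, adjusted p = 0.00555). These were the 2 kinesins called with a wheel (background 7.09%) and, for Kif21b, the 1 called without (6.19%). The call of Kif21b without a wheel was lost without L1 replicate 1 or L5 replicates 2 or 3 of that condition (adjusted p up to 0.0867). With a wheel, 4 kinesins were called without L1 replicate 1. Without a wheel, the count was 0 on leaving out any of those 3 arrays, 4 without L5 replicate 1, and 2 without L1 replicate 3 or L5 wheel replicate 3.

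**Figure D5:**
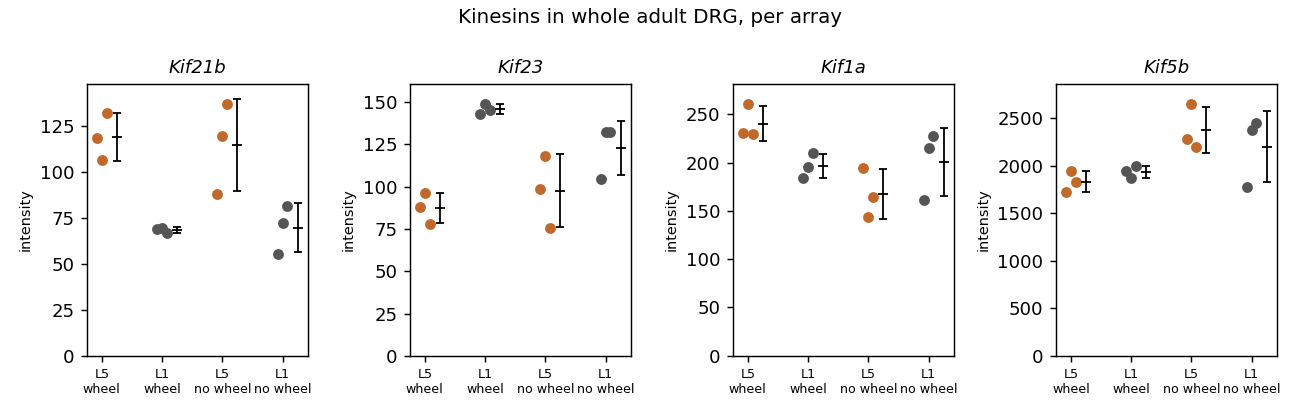
Intensity of 4 kinesins on single arrays of whole adult DRG, L5 left of L1 within the wheel and no-wheel conditions, with 1 point for each array and bars for mean ± SD (n = 3). Kif21b lies at 106 to 132 in the L5 wheel arrays and at 66.5 to 69.6 in the L1 wheel arrays.

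Running itself gave no kinesin call. The background of adjusted calls was 0.500% at L5 and 0.143% at L1. At an unadjusted p under 0.05 there were 7 of 40 kinesins at L5, against 17.2% of all genes, and 7 at L1, against 11.5%. Kif1a was at 231, 261 and 229 at L5 with a wheel, against 194, 143 and 164 without (0.53 ± 0.13, adjusted p = 0.0738), and Kif5b at 1724, 1941 and 1827 against 2279, 2652 and 2197 (-0.37 ± 0.12, adjusted p = 0.127). Neither pair of ranges overlapped, but neither gene was called, and the share of all genes without overlap was not counted. Leaving out 1 array gave up to 3 calls at L5 (without L5 no-wheel replicate 1, and 1 without L1 no-wheel replicate 1) and 2 at L1 (without L1 wheel replicate 1). No kinesin passed in the test of a different response to running at L5 and L1 (background of adjusted calls 0%), and 4 of 40 had an unadjusted p under 0.05, against 10.3% of all genes.

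Cargo adaptors and dynein were measured alongside the motors. Of 19 measured cargo adaptors and 21 dynein and dynactin genes, which drive transport back to the cell body, none passed between the fractions of wild-type pooled ganglia (3 and 1 at an unadjusted p under 0.05, against 26.1% of all genes). In the NT3-/-Bax-/- sort 6 adaptors were higher in TrkCGFPon cells and 1 lower, and 4 dynein genes were higher and 1 lower, against 12.4% of all genes higher and 11.8% lower. In the Bax-/- sort Hap1 was higher and no dynein gene passed, against 5.34% of all genes higher and 5.12% lower. In the mlcNT3 sort no adaptor passed and 2 dynein genes were lower, against 5.45% of all genes higher and 8.09% lower. At L5 2 adaptors were higher and 2 lower, and at L1 3 were higher and 1 lower, beside shares over all genes of 13.0% either way at L5, and 11.9% higher and 11.8% lower at L1. Of the dynein genes 1 was lower at L5 and 2 at L1, with none higher. For NT3 loss in TrkCGFPon cells, 2 adaptors, Kidins220 and Hap1, were higher, against 8.78% of all genes. Trak2 and the dynein and dynactin genes Dynlt3 (-0.91 ± 0.20, adjusted p = 0.00701) and Dctn3 (-0.61 ± 0.19, adjusted p = 0.0412) were lower, against 12.6%. Hap1, which links huntingtin to motors, was at 2067 and 2874 in NT3-/-Bax-/- TrkCGFPon cells, against 716 and 713 in Bax-/- TrkCGFPon cells. In TrkCGFPoff cells, in the arrays that stood apart, 9 of 19 adaptors were lower and none higher, with the largest differences in Rhot2, a mitochondrial adaptor (-1.22 ± 0.20), Sybu (-1.06 ± 0.27), Grip1 (-1.02 ± 0.17) and Trak2 (-0.96 ± 0.21). There 6 of 21 dynein genes were lower and 2 higher, against 15.5% of all genes lower and 10.1% higher.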

How the data were processed

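RNA from sorted p0 or whole adult mouse DRG was hybridised to Affymetrix Mouse Genome 430 2.0 arrays. The authors deposited RMA-normalized values as linear intensities, and the submitters' processing notes name R 2.9, affy, RMA and MAS5. Columns of other samples numbered 0. The log2 of each deposited intensity was taken with no pseudocount, and 64 control probe sets were left out, leaving 45037. The platform annotation gave 1 gene to 34945 of these, several to 932 and none to 9160. Median intensities were 64.8 to 72.5, and the number of arrays limits the precision. No array was dropped.

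Groups came from the labels. limma 3.58.1 (R 4.3.3, lmFit and eBayes) was fitted separately to the pooled p0, L5 and L1 p0, and adult arrays, with Benjamini-Hochberg adjustment over all probe sets and calls at an adjusted p under 0.05. Each gene stood for its brightest probe set over all arrays. Values per array are given for the called genes with the largest differences (up to 8 a comparison) and for named transport kinesins whatever their test. The kinesin genes and all lists were chosen with earlier results of these data known. The fits were tested on simulated data. Alternatives were the methods' t-test, other thresholds, probe sets, pseudocount and normalization, a replicate block and leaving out each array. Promoters came from RefSeq, GRCm38.p6.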

Additional observations from a re-analysis of the deposited data

Results flagged for a closer look

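The effect of NT3 loss differed between TrkCGFPon and TrkCGFPoff cells by a test of the difference itself for 8 kinesins. On the log2 scale, as the effect in TrkCGFPon minus that in TrkCGFPoff cells, the values were -3.19 for Kif20b, -2.44 for Kif23, -2.22 for Kif11, -1.53 for Kif18b, -1.02 for Kif4 and -0.91 for Kif22, and 0.99 for Kif13b and 0.85 for Kif3c. The difference between TrkCGFPon and TrkCGFPoff cells was itself unlike in NT3-/-Bax-/- and wild-type mice for 8 kinesins, a comparison added after seeing the data. As NT3-/-Bax-/- minus wild-type, it was -2.51 for Kif11, -2.49 for Kif20b, -2.27 for Kif23, -1.75 for Kif18b, -1.28 for Kif4 and -0.89 for Kif22, and 1.38 for Kif3b and 0.95 for Kif26b. The 2 tests share the NT3-/-Bax-/- arrays, including the 2 TrkCGFPoff arrays with high fibroblast and division gene levels, so they are not independent.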

How the results depend on the processing

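Signs under the alternatives were read for the called kinesins with the largest differences, up to 8 a comparison. For the probe set used for each of these genes, no difference changed sign under the alternatives run. The signs of the remaining calls were not followed. Other probe sets of some genes had the opposite sign, none of them called: Kif1c at L5 (0.43, 0.16 and 0.17 against -1.04) and Kif21b in wild-type fractions (-0.16 against 2.32) are examples. Beside main counts of 4 (wild-type), 3 (Bax-/-), 19 (NT3-/-Bax-/-) and 6 (mlcNT3) kinesins between the fractions, 6, 16 and 8 for NT3-/-Bax-/- against Bax-/- in TrkCGFPon cells, in TrkCGFPoff cells and for their interaction, 11 against wild-type, 11 at L5, 8 at L1, and 2 and 1 in adults with and without a wheel, these settings moved counts by more than 1.5 times. Fitting only the groups compared gave 8 for wild-type and 5 for NT3-/-Bax-/- fractions, 1, 10 and 2 for NT3 loss, 7 against wild-type and 0 in adults without a wheel. The methods' t-test after adjustment, which called no kinesin in any pooled comparison and so bears on none of them, gave 0 for those 7 comparisons with groups of 2 and in both adult ones, 6 at L5 and 1 at L1. An unadjusted p of at most 0.02 with 2 fold gave 10 for NT3-/-Bax-/- fractions, 10 for NT3 loss in TrkCGFPoff cells, 6 against wild-type, 5 at L5, 5 at L1 and 0 in both adult comparisons of level. Counting any probe set gave 17 against wild-type and 1 for running at L5 and at L1. Without dim probe sets the interaction had 5, and with a pseudocount of 32 adults without a wheel had 0.

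Leaving out 1 array gave 2 to 6 for wild-type, 3 to 5 for Bax-/-, 14 to 20 for NT3-/-Bax-/- and 3 to 7 for mlcNT3 fractions. It gave 4 to 7, 12 to 18 and 3 to 9 for NT3 loss in TrkCGFPon cells, in TrkCGFPoff cells and their interaction, 5 to 12 against wild-type, and 0 to 1 for Bax-/- against wild-type. It gave 6 to 11 at L5, 5 to 8 at L1, 2 to 4 and 0 to 4 in adults with and without a wheel, and 0 to 3 and 0 to 2 for running at L5 and L1. The replicate numbers were not shown to pair samples. With the replicate block, counts were 4, 4, 20 and 7 for the fractions and 6, 18 and 7 for NT3 loss, and every L5 array correlated best with its own number (0.0849 to 0.203, others at most 0.0436), a hint only.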
